A study of Mus musculus with 2 samples.

Results

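Tmem252, Pcp4l1, Csn3, S100a6 and Defb1 are 5 genes of the 22383 features counted in single cells of mouse pancreatic islets. They were picked by name, after their counts were known, because their transcripts stood far higher in the insulin-containing cells of the library labelled TBL/RbKO than in those of the control library. That difference is therefore what chose them, and it is given here as a description. Their levels by hormone class and insulin content were known as well when they were picked, so those values are descriptions too.

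The control library held cells of 150 islets pooled from 4 mice labelled wildtype, which the study describes as Cre-negative littermates. The TBL/RbKO library held 150 islets pooled from 4 mice with floxed Tbl1x and Tbl1xr1 (TBL1X fl/fl TBL1XR1 fl/fl) and Ins1Cre, a Cre recombinase placed at the endogenous Ins1 locus so that recombination takes place in β-cells. All mice were 5 weeks old and the islets spent a night in culture before dissociation. Each genotype gave 1 library, so no difference between them has a replicate check. The intervals below are exact 95% intervals for counting error only, and genotype, pool and library cannot be told apart.

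TBL1X and TBL1XR1 are subunits of the NCoR/SMRT corepressor complex, which is recruited to chromatin by nuclear receptors and other factors and carries a histone deacetylase. The β-cell is known for keeping a narrow set of genes on (insulin, Mafa, the glucose transporter Slc2a2) and many genes of other tissues off. None of the 5 genes is a textbook β-cell gene. Csn3 encodes κ-casein, the milk protein that coats casein micelles and is made by the lactating mammary gland. Defb1 encodes a β-defensin, a small secreted antimicrobial peptide of epithelia such as kidney and airway. S100a6 encodes calcyclin, a calcium-binding EF-hand protein common in fibroblasts and epithelia. Pcp4l1 encodes a relative of Pcp4 (PEP-19), a small neuronal protein that binds calmodulin. Tmem252 encodes a small transmembrane protein whose function is little known.

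The genes lie on 5 different chromosomes. On GRCm39 (GENCODE annotation), Tmem252 spans chr19:24651363-24659757 on the plus strand with 2 exons, and Pcp4l1 spans chr1:171000246-171023837 on the minus strand with 3 exons. Csn3 lies at chr5:88073438-88080524 on the plus strand with 4 exons, S100a6 at chr3:90520140-90535843 on the plus strand with 3 exons, and Defb1 at chr8:22266584-22285201 on the plus strand with 2 exons. Exons are those of the canonical transcript.

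Promoter sequence was at hand for 3 of the 5 members, and the 120 bases before the annotated start of each are shown so that the genes' control regions can be compared (RefSeq, build GRCm38.p6, each read 5′ to 3′ on the gene's strand). The windows are chr19:24673888-24674007 on the plus strand for Tmem252, chr1:171196269-171196388 on the minus strand for Pcp4l1 and chr3:90612774-90612893 on the plus strand for S100a6. Capitals mark an E-box (CANNTG) in Tmem252 and S100a6 and, in Pcp4l1, a CCAAT box read on the opposite strand.
Tmem252: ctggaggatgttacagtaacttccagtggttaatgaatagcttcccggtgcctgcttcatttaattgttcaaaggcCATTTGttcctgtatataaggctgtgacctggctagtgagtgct
Pcp4l1: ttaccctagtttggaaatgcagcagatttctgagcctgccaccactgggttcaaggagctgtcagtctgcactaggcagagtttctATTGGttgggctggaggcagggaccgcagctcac
S100a6: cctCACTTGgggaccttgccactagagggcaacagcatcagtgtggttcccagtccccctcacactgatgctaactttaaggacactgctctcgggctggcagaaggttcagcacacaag
No motif searched was shared by the shown part of all 3 windows. Over the full 250 bases before each start, searched on both strands, a CCAAT box was found in all 3 (243 bases before the start in Tmem252, 34 in Pcp4l1 and 228 in S100a6), beside 33.8% of 32851 mouse promoters of the same length. E-boxes were found in Tmem252 (44 and 229 bases before the start) and in S100a6 (117 bases before), and 66.2% of promoters hold one. TATAAA (12.4% of promoters), the AP-1 motif TGANTCA (6.75%), the homeobox core TAATTA (4.84%) and the cAMP response element TGACGTCA (1.55%) were not found in these letters in any of the 3 windows.

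Counts came from barcodes with more than 2500 detected genes and less than 10% mitochondrial UMIs, a UMI being the tag of 1 captured transcript. This kept 4747 of 7067 control barcodes and 4179 of 5833 in the TBL/RbKO library, with a median of 40626 and 27425 UMIs. A barcode was put in the insulin, Gcg (glucagon), Sst (somatostatin) or Ppy (pancreatic polypeptide) class by its most abundant hormone at 100 or more UMIs per 10000, and in the no-hormone class otherwise. The insulin class held 2877 control and 1338 TBL/RbKO cells, and insulin transcripts made up 49.6% and 27.9% of their UMIs. Within this class the median depth was higher in TBL/RbKO than in control cells. Shares of cells with a UMI are therefore at unequal depth unless thinned. The floxed genes went against the label: Tbl1x stood at 96.9 CPM (UMIs per 1000000 UMIs) in control and 351 CPM in TBL/RbKO insulin-class cells, and Tbl1xr1 at 20.0 and 129 CPM. These are 3′ tags, and where the floxed exons lie is not given in the sources used here, so tags outside the deleted part check nothing. By quantitative PCR the study found both genes lower in islets of TBL/RbKO mice of the same age. UMIs of Cre separated the libraries, with 0 UMIs in control and 3107 in TBL/RbKO insulin-class cells. The libraries shared 14 barcodes, of which 12 passed the filter in both.

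In control insulin-class cells the members ranged from barely present to plainly present. Tmem252 had 5 UMIs in 2877 cells (0.027 CPM, 0.009 to 0.064). Csn3 had 59 UMIs (0.324 CPM, 0.247 to 0.418) and Pcp4l1 197 UMIs (1.08 CPM, 0.936 to 1.24). S100a6 stood at 8.69 CPM (8.27 to 9.13), and Defb1, the one member that most control β-cells showed at all, at 41.3 CPM (40.3 to 42.2), with a UMI in 68.3% of cells. Beside them, a UMI of Tmem252 was found in 0.139%, of Csn3 in 1.56%, of Pcp4l1 in 3.96% and of S100a6 in 18.3% of control cells.

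In the TBL/RbKO insulin class every member was abundant. Tmem252 stood at 73.4 CPM (7411 UMIs, interval 71.7 to 75.1) and had a UMI in 45.1% of cells. Csn3 stood at 141 CPM (139 to 143) with a UMI in 78.3% of cells, and Pcp4l1 at 132 CPM (130 to 134) with a UMI in 57.5%. The calcium-binding S100a6 stood at 467 CPM (463 to 471) with a UMI in 72.6% of cells, and the defensin Defb1 at 561 CPM (556 to 565) with a UMI in 91.9%.

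The ratios of these levels, which chose the genes, were 2674-fold for Tmem252 (1145 to 8237), 435-fold for Csn3 (337 to 572), 122-fold for Pcp4l1 (106 to 141), 53.8-fold for S100a6 (51.1 to 56.6) and 13.6-fold for Defb1 (13.3 to 13.9). On the log2 scale they were 11.38, 8.77, 6.93, 5.75 and 3.76. All 5 members lay past 4-fold, beside 3.25% of the 13944 genes with 50 or more UMIs in this class, whose median log2 ratio was 0.31. By size of the ratio Tmem252 ranked 1, Csn3 3, Pcp4l1 9, S100a6 24 and Defb1 106 of these genes, with the added Cre sequence between Tmem252 and Csn3, so the set takes in the top of the list and not all of it. Among cells under 6000 detected genes, ranked with genes at 10 CPM or more, Pnliprp1 (8.05 against the limit of 3 counts, at 0 control UMIs) and Endou (7.07) followed Csn3 (8.19) and came before Pcp4l1 (6.32). Leaving hormone and mitochondrial UMIs out of the totals moved the members' log2 ratios to 10.90, 8.28, 6.45, 5.27 and 3.28.

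**Figure D1:**
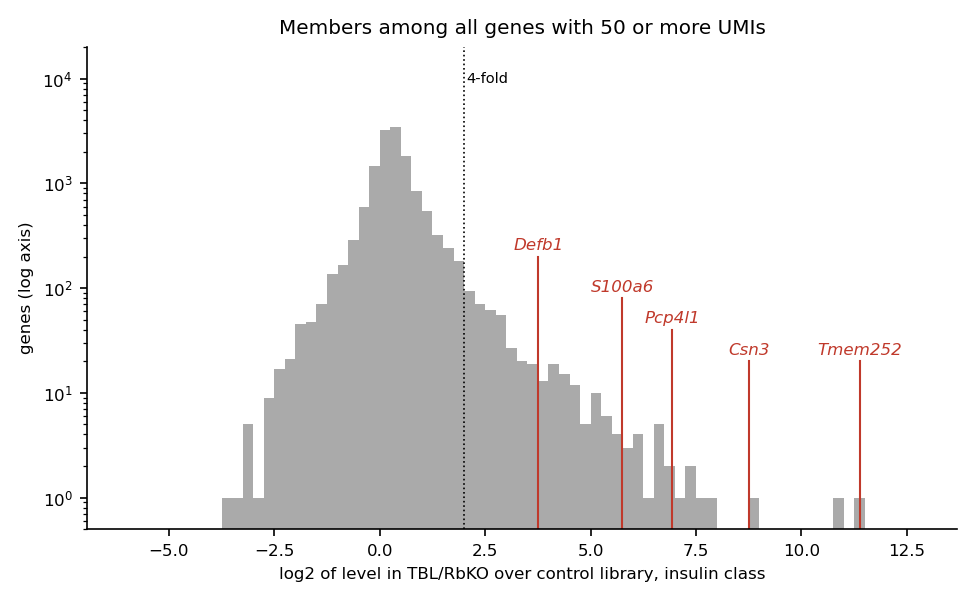
Distribution of the log2 ratio of CPM, TBL/RbKO over control library, over the 13944 genes with 50 or more UMIs in insulin-class cells (x axis, log2 ratio; y axis, number of genes, log scale). Red lines mark the members, from Defb1 at 3.76 to Tmem252 at 11.38, all right of the dotted 4-fold line, while the median gene lay at 0.31.

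Levels differed widely between cells of the TBL/RbKO insulin class. Per 10000 UMIs, the median cell held 0 of Tmem252, 0.174 of Pcp4l1, 0.743 of Csn3, 0.824 of S100a6 and 3.11 of Defb1, while the 90th percentile was 2.09, 3.42, 3.45, 13.4 and 14.8. Tmem252 and Pcp4l1 were the most unequal of the members. Cells above the 90th percentile of a gene's raw UMIs, with depth not evened out, held 67.7% of all Tmem252 UMIs and 70.9% of Pcp4l1 UMIs. Single cells reached 151 UMIs of Tmem252 and 372 of Pcp4l1. Csn3 and Defb1 were spread more evenly, with 43.6% and 41.8% of their UMIs in the cells so ranked, and S100a6 lay between (59.5%).

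The members also met in the same cells. Every cell was thinned to 5000 UMIs so that total depth was equal. Insulin made up 49.6% of control and 27.9% of TBL/RbKO UMIs, so thinned control cells kept fewer UMIs of other genes. After thinning, 434 of the 1338 TBL/RbKO insulin-class cells (32.4%) had UMIs of 3 or more members and 17.8% had none. Of the 2877 control cells 0 had 3 or more, for which 3 counts would be 0.104% and the exact interval reaches 0.128%, and 80.8% had none. At full depth the share with 3 or more was 77.5% (75.2 to 79.7) against 1.18%, and 26.5% of TBL/RbKO cells had all 5. Across TBL/RbKO insulin-class cells the Pearson correlation between pairs of members ran from 0.08 (Pcp4l1 and Csn3) to 0.35 (S100a6 and Defb1). These are descriptions over 1338 cells of 1 library, which share its depth and its insulin content. Within the cells of high insulin content described below the correlations were 0.15 to 0.41, and within those of low content -0.07 to 0.19.

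**Figure D2:**
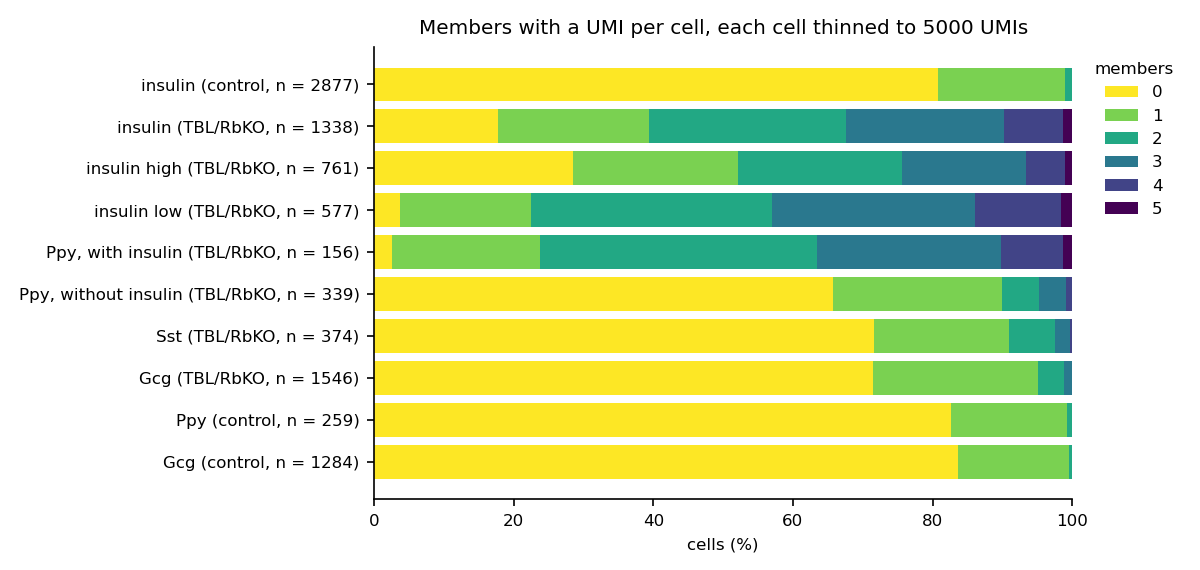
Share of cells (x axis, percent) with UMIs of 0 to 5 members after thinning each cell to 5000 UMIs, one stacked bar for each cell class and library. Of control insulin-class cells 80.8% held no member and 0 held 3 or more, while 32.4% of TBL/RbKO insulin-class cells held 3 or more. Thinning counted insulin UMIs, which made up a larger part of control insulin-class cells.

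Insulin content divided the members. The insulin class was split at 2000 insulin UMIs per 10000 into high (2673 control, 761 TBL/RbKO cells) and low (204 and 577 cells) content. TBL/RbKO cells of high content also carried all 5 members: Tmem252 stood at 60.6 CPM against 3 UMIs in all control cells of high content (0.017 CPM), and Csn3 at 136 against 0.321 CPM. Pcp4l1 stood at 66.1 against 0.773 CPM, S100a6 at 358 against 6.91 CPM and Defb1 at 385 against 41.1 CPM.

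In the low-content TBL/RbKO cells Pcp4l1 was at 238 CPM, 3.60 times its level in high-content cells, and Defb1 at 842 CPM, 2.18 times. S100a6 (641 CPM) was 1.79 times, Tmem252 (93.9 CPM) 1.55 times and Csn3 (150 CPM) 1.10 times higher. The median gene was itself higher in low-content cells, by 0.57 on the log2 scale, on a scale where insulin takes a smaller part of their UMIs by the split itself. Beside that, Tmem252 (log2 0.63) stood at the median and Csn3 (0.14) below it, and the other members above it (Pcp4l1 1.85, Defb1 1.13, S100a6 0.84). Of the 5 members 0 passed 4-fold here, beside 1.71% of 12964 genes.

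Over finer steps of insulin content the members took different courses in the TBL/RbKO library. Pcp4l1 was highest at the lowest content, 273 CPM at 100 to 500 insulin UMIs per 10000 (75 cells) and 242, 231, 98.7 and 22.3 CPM at the steps above. Tmem252 and Csn3 peaked in between: Tmem252 at 53.5, 108, 93.6, 87.6 and 24.1 CPM, and Csn3 at 95.8, 116, 173, 177 and 80.2 CPM from the lowest to the highest content. S100a6 (825 to 162 CPM) and Defb1 (990 to 171 CPM) were lowest at the highest content. Even at 4000 to 10000 insulin UMIs per 10000, with 323 TBL/RbKO and 2286 control cells, each member stood higher than in the control library, where the same step held 0.013 CPM of Tmem252, 0.38 of Pcp4l1, 0.37 of Csn3, 6.22 of S100a6 and 40.5 of Defb1.

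The control cells of low insulin content differed from those of TBL/RbKO in depth and in markers of other cells. Their median depth was 10083 UMIs against 62217 in TBL/RbKO, and their macrophage markers summed to 2139 CPM against 37.0. Of the 204 cells, 55 held non-endocrine markers, taken as 3 or more of a type at 20 or more UMIs per 10000. Ductal markers were not used for this. Over the control cells of low and high content together, 4 of the members had 50 or more UMIs. Of these Pcp4l1 (log2 4.01) and S100a6 (3.42) were past 4-fold over control cells of high content, beside 12.5% of 13122 genes. With the marker-bearing cells left out, 149 control cells of low content showed 0 UMIs of Tmem252, 12.5 CPM of Pcp4l1, 0.500 CPM of Csn3, 24.8 CPM of S100a6 and 55.8 CPM of Defb1, against 96.3, 243, 152, 622 and 851 CPM in the 559 TBL/RbKO cells left. The control value of Csn3 rests on 2 UMIs.

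**Figure D3:**
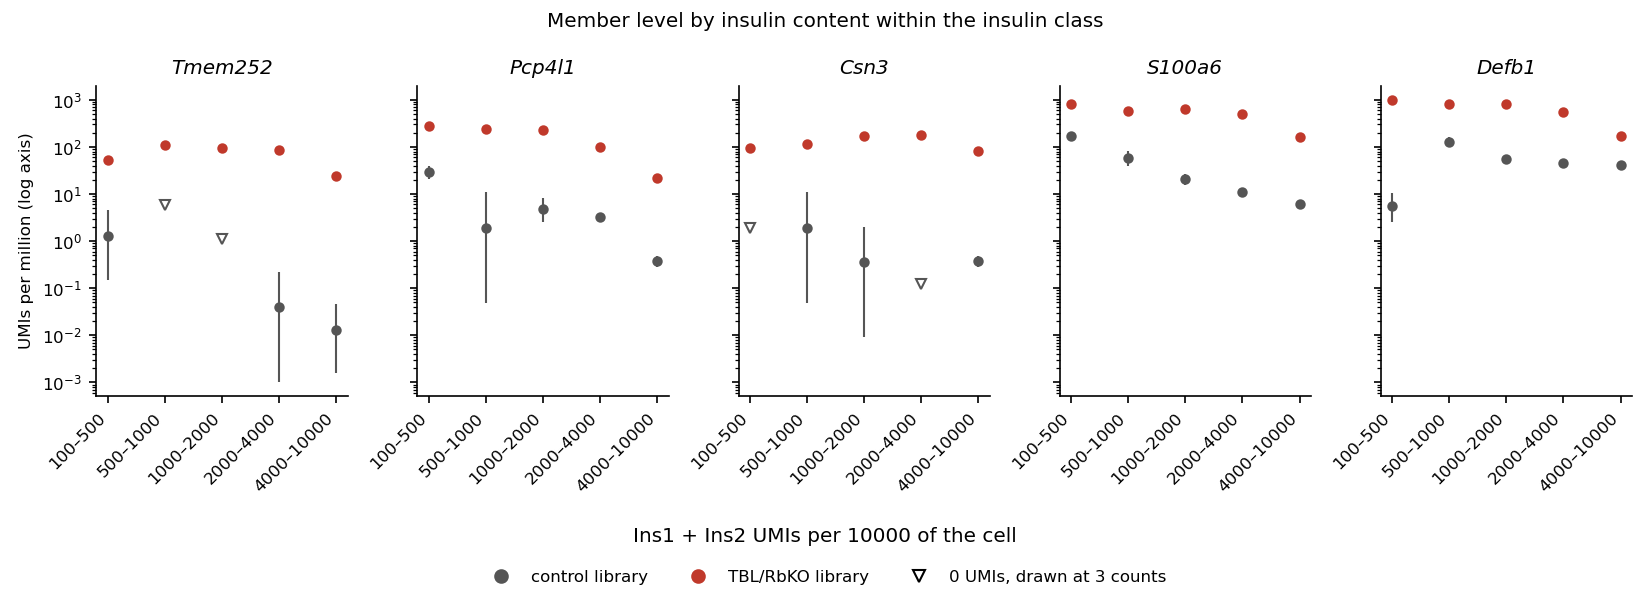
Level of each member (y axis, CPM, log scale) in insulin-class cells by insulin content (x axis, Ins1 and Ins2 UMIs per 10000), control in grey and TBL/RbKO in red, with bars for the exact 95% Poisson interval and open triangles where 0 UMIs are drawn at 3 counts. In TBL/RbKO Pcp4l1 went from 273 CPM at the lowest to 22.3 CPM at the highest content, while Tmem252 and Csn3 peaked in between at 108 and 177 CPM.

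Outside the insulin class the members' home in the control islet differed from gene to gene. Pcp4l1 was present in control Gcg-class cells at 24.3 CPM, against 1.08 CPM in the insulin class. Defb1 was found in all 4 hormone classes of the control library, at 16.3 CPM in Gcg, 44.2 in Sst and 43.2 in Ppy cells. Tmem252 had 1 UMI over these 3 classes together, Csn3 1 UMI, and S100a6 stood at 7.50, 21.3 and 5.86 CPM.

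The Ppy class of the TBL/RbKO library (495 cells, 259 in control) carried all 5 members. Pcp4l1 stood at 143 CPM against 0.721 in control (199-fold), S100a6 at 279 against 5.86 CPM (47.6-fold) and Defb1 at 516 against 43.2 CPM (11.9-fold). Tmem252 stood at 47.5 CPM against 0 UMIs, at least 176-fold higher against 3 counts over the control group, and Csn3 at 37.7 CPM against 1 UMI (418-fold, 74.8 to 16537). All 5 passed 4-fold, beside 2.37% of 11760 genes whose median log2 ratio was 0.25. The differences in the Gcg and Sst classes were smaller.

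In the Sst class (223 control and 374 TBL/RbKO cells) Tmem252 stood at 10.7 CPM against 1 UMI, Pcp4l1 at 16.8 against 1.49 CPM, S100a6 at 140 against 21.3 CPM and Defb1 at 180 against 44.2 CPM. Csn3 stood at 17.4 CPM against 0 UMIs, at least 31.2-fold higher. All 5 passed 4-fold, beside 0.377% of 11142 genes. In the Gcg class (1284 and 1546 cells) 4 members passed 4-fold, beside 0.586% of 12632 genes. These were Tmem252 at 8.97 CPM (at least 86.1-fold higher) and Csn3 at 6.77 CPM (at least 64.9-fold), both against 0 control UMIs, with S100a6 at 39.8 against 7.50 CPM (5.31-fold) and Defb1 at 97.5 against 16.3 CPM (6.0-fold). Pcp4l1, the member already present there, was at 48.8 against 24.3 CPM (2.00-fold, 1.83 to 2.19).

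**Figure D4:**
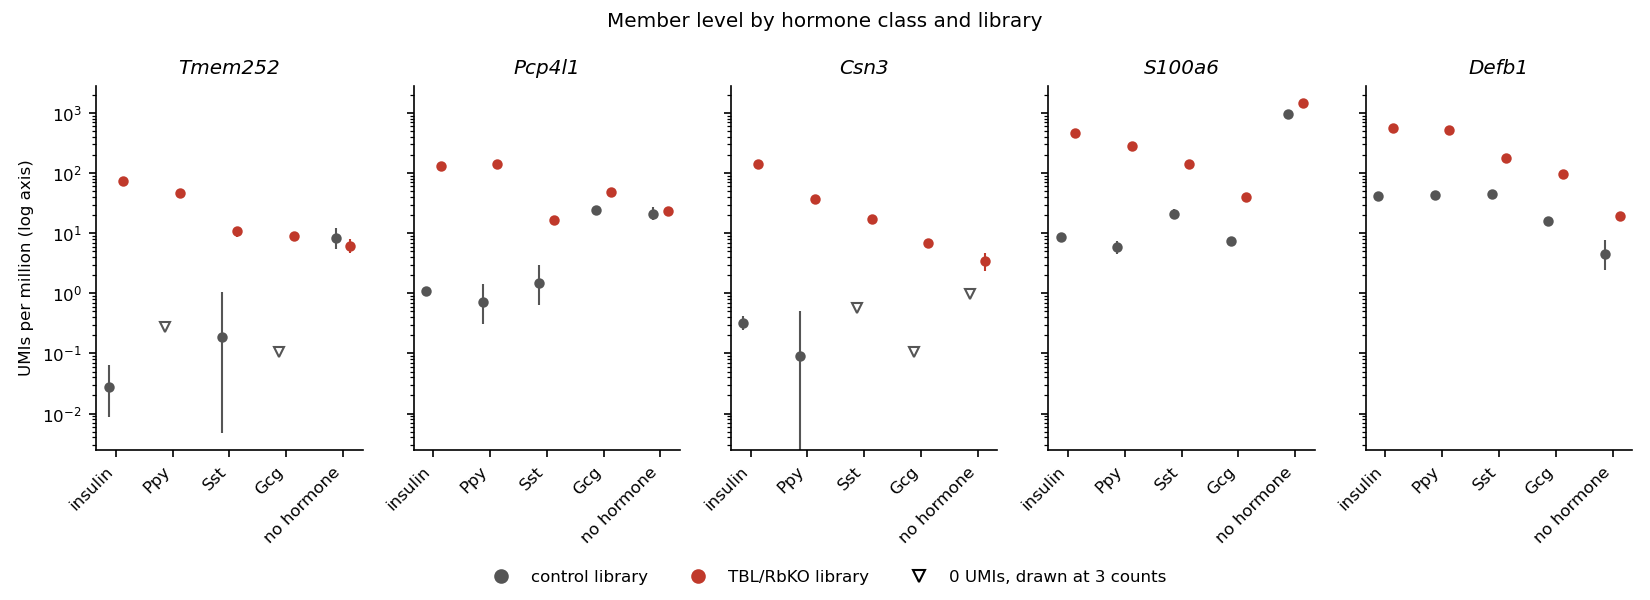
Level of each member (y axis, CPM, log scale) in the insulin, Ppy, Sst, Gcg and no-hormone classes (x axis), control in grey and TBL/RbKO in red, with exact 95% Poisson intervals and open triangles where 0 UMIs are drawn at 3 counts. The gap between libraries was large in the insulin and Ppy classes (Pcp4l1 132 against 1.08 and 143 against 0.721 CPM) and small for Pcp4l1 in the Gcg class (48.8 against 24.3 CPM).

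These values differed with the insulin transcripts in the same barcodes, and the cause was not tested. Of the TBL/RbKO Gcg-class cells, 90 held 100 or more insulin UMIs per 10000 and 1456 did not. Tmem252 stood at 60.0 CPM in the former and 2.03 CPM in the latter, Csn3 at 32.9 and 3.22 CPM, S100a6 at 170 and 22.1 CPM and Defb1 at 551 and 35.8 CPM. Pcp4l1 differed less (93.3 and 42.7 CPM). Sst-class cells showed the same order, with Defb1 at 703 CPM in the 35 cells with insulin and 74.1 CPM in the 339 without.

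Without insulin-containing barcodes on either side, the Gcg-class ratios of TBL/RbKO over control were 1.63 for Pcp4l1, 2.18 for S100a6 and 2.11 for Defb1, and at least 12.3 for Tmem252 and 19.4 for Csn3. Those of the Sst class were 13.5 for Tmem252 (2.27 to 547, on 36 UMIs against 1), at least 7.73 for Csn3, 4.34 for Pcp4l1, 3.66 for S100a6 and 1.96 for Defb1. In the Ppy class the members stayed far above control without insulin as well. There Tmem252 stood at 16.4 CPM (at least 48.4-fold higher than in control), Pcp4l1 at 42.7 CPM (63.2-fold), Csn3 at 8.69 CPM (77.1-fold), S100a6 at 145 CPM (25.8-fold) and Defb1 at 231 CPM (5.48-fold). The count past 4-fold in the Gcg class was 2 in place of 4 without cells of a second hormone, and 2 under 6000 detected genes. In the Sst class it was 0 in place of 5 without such cells and 1 under 6000 genes, where Defb1 was lower in TBL/RbKO (log2 -0.47). With the highest Scrublet doublet scores removed, the counts were 4 in the Gcg class and 5 in the Sst class, and in the Ppy class the count was 5 under each of these alternatives.

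Within the insulin class the members were higher in cells with a second hormone than in cells without one, most of all with Ppy. The 691 TBL/RbKO cells with Ppy at 100 or more per 10000 held 99.6 CPM of Tmem252, 197 of Pcp4l1, 166 of Csn3, 540 of S100a6 and 758 of Defb1. In the 243 cells with Gcg at that level they stood at 73.0, 128, 140, 412 and 545 CPM, and in the 224 with Sst at 69.7, 154, 133, 446 and 557 CPM. In the cells with Gcg or Sst the levels were near those of the whole TBL/RbKO insulin class. A cell may be counted under more than one second hormone. The parts of these shared cells and of insulin content in these values were not tested. The 525 cells without a second hormone held 43.5, 50.1, 111, 370 and 341 CPM. Even these single-hormone cells stood well above the 2409 single-hormone control cells, which held 0.021, 0.528, 0.364, 7.85 and 40.6 CPM.

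Cells with more members had less of the mature β-cell genes. TBL/RbKO insulin-class cells were grouped by the number of members found after thinning, into 527 cells with 0 or 1, 681 with 2 or 3 and 130 with 4 or 5. Mafa, a transcription factor of mature β-cells, stood at 157, 47.8 and 22.4 CPM in these groups and the glucose transporter Slc2a2 at 95, 33.8 and 22.4 CPM. Pdx1 (86.0, 78.3 and 79.6 CPM) and Nkx6-1 (119, 111 and 119 CPM), factors of β-cell identity, and the late β-cell peptide Ucn3 (146, 131 and 107 CPM) differed less. Ins1 stood at 53403, 27088 and 19100 CPM and Ppy at 11917, 23634 and 28444 CPM. Over the same groups the median depth was 65121, 71280 and 77734 UMIs and the median mitochondrial share 3.49%, 3.99% and 4.26%. The median insulin content was 3736, 1859 and 1647 UMIs per 10000. Thinning counted insulin UMIs too, so cells with less insulin kept more UMIs of other genes for the grouping. The parts of depth and of insulin content in these values were not tested.

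Non-endocrine cells were read as a background, in which free RNA and expression of a member by the cells themselves cannot be told apart. In macrophage-like cells (36 control, 52 TBL/RbKO) Tmem252 was at 0 UMIs in both libraries, and Pcp4l1 and Csn3 had 1 UMI each in TBL/RbKO. Defb1 had 11 UMIs in the TBL/RbKO macrophage-like cells (11 CPM) and a UMI in 19.2% of them at a median depth of 18469 UMIs, against 91.9% of insulin-class cells at a median of 67897. Thinned to equal total depth these shares were 7.69% and 64.1%. S100a6, which macrophages express, was at 69.3 CPM in control and 38.1 CPM in TBL/RbKO macrophage-like cells.

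Endothelial-like cells (20 and 35) carried Tmem252 in both libraries, at 23.9 CPM in control and 45.3 CPM in TBL/RbKO, and Pcp4l1 at 33.7 and 37.0 CPM. Stromal-like cells (41 and 103) carried S100a6 at 1508 and 2721 CPM. Csn3 had no UMI in endothelial-like cells of either library. In the no-hormone class as a whole Tmem252 (8.38 CPM in control, 6.21 in TBL/RbKO) and Pcp4l1 (21.3 and 23.2 CPM) had ratios whose intervals hold 1 (0.462 to 1.22 and 0.828 to 1.46), S100a6 stood at 966 and 1496 CPM, Csn3 at 0 and 3.40 CPM and Defb1 at 4.51 and 19.0 CPM (4.22-fold), beside 6.7% of 11885 genes past 4-fold.

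Because S100a6 is a stromal and duct gene as well, marker sums of other cells were read in the insulin class itself, beside the 3.25% of all genes past 4-fold higher there. The 10 markers of the Ppy cell summed to 7963 CPM in control and 53283 CPM in TBL/RbKO (3 of 10 past 4-fold higher), the 9 α-cell markers in the tables to 6589 and 10082 CPM (0 of 9) and the δ-cell markers to 3090 and 5392 CPM (0 of 8 measured). The 10 stromal markers summed to 36.4 CPM in control and 106 CPM in TBL/RbKO (6 of 10 past 4-fold higher), and the ductal markers to 546 and 1450 CPM (3 of 9 measured). Macrophage markers were at 107 and 34.2 CPM, endothelial at 30.6 and 23.6 CPM, B cell at 56.9 and 43.9 CPM (6 of 9 measured past 4-fold higher), T cell at 1.07 and 0.614 CPM, acinar at 9.38 and 23.0 CPM and Schwann at 7.92 and 21.9 CPM. Of the markers counted, 3 T cell genes (Cd3e, Cd8a and Nkg7) were at 0 UMIs in both libraries and the others had a UMI in at least one library. With the 64 control and 26 TBL/RbKO cells that held non-endocrine markers other than ductal left out, S100a6 stood at 7.0 CPM in control and 456 CPM in TBL/RbKO. Ductal markers were not used for this, and cells with fewer than 3 markers of a type stayed in. The duct keratin Krt19 had a UMI in 109 control (3.79%) and 455 TBL/RbKO insulin-class cells (34.0%). In the 883 TBL/RbKO cells without one, Tmem252 stood at 57.4, Pcp4l1 at 103, Csn3 at 133, S100a6 at 389 and Defb1 at 470 CPM, against 0.029, 1.12, 0.325, 8.67 and 41.5 CPM in control cells without one.

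Other measured genes of the members' families included some past 4-fold and some not. Of 17 S100 genes listed, 9 had 50 or more UMIs in the insulin class. S100a6 and S100a3 (39 UMIs in control and 126 in TBL/RbKO, log2 2.54) were past 4-fold higher and S100z (579 and 37 UMIs, log2 -3.12) was past 4-fold lower, beside 3.25% of all genes past 4-fold higher and 0.394% past 4-fold lower. S100a1 (1.11), S100a13 (1.21), S100a10 (0.68), S100a4 (1.45) and S100a11 (-0.25) were not. The family's median log2 ratio was 1.11, beside 0.31 for all genes.

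Of 13 β-defensins, 6 had no UMI and 2 reached 50 UMIs. These were Defb1 and Defb8, which had 6 control and 57 TBL/RbKO UMIs (log2 4.10). Both were past 4-fold higher, beside 3.25% of all genes. Of the caseins and their neighbours Csn3 was the only one measured of 10 listed, so no relative could be compared. The major milk caseins Csn1s1, Csn2 and Csn1s2a had 0 UMIs in both libraries and Csn1s2b had 0 and 5 UMIs. Transcripts of κ-casein thus appeared without those of Csn1s1, Csn2 and Csn1s2a and with few of Csn1s2b. Among the 6 genes of the PEP-19 and calmodulin list Pcp4l1 alone passed 4-fold, beside the same 3.25% of all genes. Pcp4 stood at log2 0.95, Calm2 at 0.25, Calm3 at -0.05 and Nrgn at -0.76.

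The genes next to the members on the chromosome could be measured only in part. Of the 20 nearest protein-coding genes, the nearest 2 on each side of each member, 19 were in the count tables and 8 had 50 or more UMIs in the insulin class. No neighbour of Csn3 or Defb1 was among these. Of the 8, 0 were past 4-fold, beside 3.25% of all genes past 4-fold higher and 0.394% lower. With so few genes a count of 0 cannot be told from these shares. Their median log2 ratio was 0.60, beside 0.31 for all genes. S100a4, next but one before S100a6, had the highest of these ratios (log2 1.45, 1.27 to 1.63). Pgm5, which starts 623 bases past the end of Tmem252, had 88 control and 95 TBL/RbKO UMIs (log2 0.96), where Tmem252 had 5 and 7411. S100a5, ending 1053 bases before S100a6, had 3 and 4 UMIs. On either side of Defb1, Defa24 and Defb2 had 0 UMIs and Defb50 had 2 and 7. Odam, beside Csn3, had 1 and 2 UMIs.

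The genes whose levels ran most like those of a member were sought over 12 sums (2 libraries by 6 classes, the insulin class split by content) among genes with 100 or more UMIs. Sums of 1 library share its depth and its cells, so these correlations of log2(CPM + 1) are descriptions. For Tmem252 they were Thrsp and Prkg2 (r = 0.96 each), Gstp2 (0.94), Por (0.93) and Inppl1 (0.92). Csn3 was most like Dnai2 and Prkg2 (0.96), Glul, Krt87 and Cldn1 (0.95), so Prkg2, a cGMP-dependent protein kinase, stood on both lists. In the insulin class Prkg2 was at 2.08 CPM in control and 71.4 CPM in TBL/RbKO.

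Defb1 was most like Gucy2c (0.98), a guanylyl cyclase receptor of the gut at 5.93 CPM in control and 88.6 CPM in TBL/RbKO, and like Gpd1 and Slc22a23 (0.97), Pde4c and Tmem255a (0.96). S100a6 was most like Tns1, Mrps18b and Mrpl37 (0.97), Rapgef5 and Slc29a1 (0.96), and Pcp4l1 like Kctd20 (0.94), Arid3a, Ociad1 and Tbc1d1 (0.93). Between members the correlation ran from 0.20 (S100a6 and Defb1) to 0.92 (Tmem252 and Csn3). The lowest of these is the pair that correlated most across single insulin-class cells.

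The insulin class was also divided by the number of detected genes, which is no separate check, since both sides are part of the values that chose the members. Among cells with 6000 or more detected genes (1423 control, 1026 TBL/RbKO), which the study left out, Tmem252 stood at 76.0 CPM against 3 UMIs in control, Pcp4l1 at 137 against 1.04 CPM, Csn3 at 145 against 0.29 CPM, S100a6 at 479 against 8.21 CPM and Defb1 at 571 against 40.2 CPM. Among the 1454 control and 312 TBL/RbKO cells under 6000 genes the levels in TBL/RbKO were 53.6, 94.7, 113, 375 and 483 CPM and in control 0.04, 1.18, 0.39, 9.76 and 43.6 CPM.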

How the data were processed

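Single-cell libraries (Chromium 3′ chemistry, version 3.1) of pooled islets were used, 1 per genotype. The deposited values are whole UMI counts of each gene in each barcode. The authors obtained them with Cell Ranger 7.1.0 on GRCm39 (mm39), per the submitters' processing notes. No free RNA or doublet removal was applied to the counts here. For each library and class UMIs were added up and divided by the class total (CPM), with exact Poisson intervals for levels, Clopper-Pearson intervals for shares and exact conditional binomial intervals for ratios, all at 95%. Against 0 UMIs a floor of 3 counts over the group was used. A gene was tested against a 4-fold ratio with 50 or more UMIs over both sides, and with 1 library a group no p-value was computed. Members and lists were chosen with earlier results of these data known. No-hormone cells took a non-endocrine name at 20 or more marker UMIs per 10000 and 3 or more markers. Genes named beside the members were the 5 with the highest r to each, the nearest 2 genes on each side, and from each list those past 4-fold with up to 4 of the most abundant. A few items are not reported here. Calls were checked on simulated counts. Alternatives were a limit of 6000 genes, Scrublet, other hormone and insulin thresholds, other scaling, and leaving out second-hormone or marker-bearing cells. Software was Python 3.11.15, numpy 2.4.6, scipy 1.17.1, pandas 2.3.3, scanpy 1.11.5 and matplotlib 3.10.9.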

Additional observations from a re-analysis of the deposited data

Results flagged for a closer look

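The members were also found in barcodes that failed the filter on genes or mitochondrial share, which enter no comparison (2320 control, 1654 TBL/RbKO barcodes). In the TBL/RbKO library Tmem252 stood there at 13.4 CPM (123 UMIs), Pcp4l1 at 81.1 CPM, Csn3 at 30.3 CPM, S100a6 at 164 CPM and Defb1 at 277 CPM. Each was above the control barcodes outside the filter, where Tmem252 had 0 UMIs (3 counts would be 0.275 CPM) and the others stood at 9.24, 0.183, 41.3 and 18.7 CPM.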

How the results depend on the processing

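The count of members past 4-fold stayed at 5 in the insulin and Ppy classes under each alternative that gave all 5 a value, and at 4 of 4 where the macrophage-like level was subtracted. Over the alternatives the insulin-class log2 ratios ran from 9.47 to 12.13 for Tmem252, 5.78 to 7.71 for Pcp4l1, 8.19 to 8.94 for Csn3, 4.61 to 6.03 for S100a6 and 3.07 to 3.86 for Defb1. In the Gcg class the count went from 4 to 2 under 6000 detected genes, without second-hormone cells and without insulin-containing cells. In the Sst class it went from 5 to 1, 0 and 3 under the same alternatives, and in the no-hormone class from 1 to 0 under 6000 genes. For low over high insulin content in TBL/RbKO the count went from 0 to 1 (split at 3000 per 10000, or under 6000 genes) and to 2 (without second-hormone cells), and in control from 3, with Tmem252 among them on fewer than 50 UMIs, to 1 of 4 with a value without cells holding non-endocrine markers. Directions turned for Defb1 in the Sst class (log2 -0.47) and S100a6 in the no-hormone class (-0.0045), both under 6000 genes, and for Csn3 in low over high content with the split at 1000 (-0.40) or without hormone and mitochondrial UMIs in the totals (-0.35). Of values near 0 or on few UMIs, low over high content in control went from 0.17 to between -1.25 and -0.20 for Defb1 (split at 1000, totals without hormones, under 6000 genes, no second hormone) and from 0.36 to -1.13 and -0.46 for Csn3 (split at 3000, totals without hormones), and Tmem252 in the no-hormone class went from -0.43 to 0.97 under 6000 genes. The causes were not tested. Leaving out insulin-containing, marker-bearing or Krt19 cells, or cells under 2000 insulin UMIs per 10000, was chosen after seeing the data. Removing the highest Scrublet scores took out 228 control and 97 TBL/RbKO insulin-class cells. No paired analysis was possible because each group has 1 library.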

Other observations

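The members are part of a wider set of genes higher in the insulin class of the library labelled TBL/RbKO. Of the 60 genes of the study's dedifferentiated β-cell list 57 were measured, and 11 were past 4-fold higher and 0 past 4-fold lower, with a median log2 ratio of 0.80, beside 3.25% and 0.394% of all genes and a median of 0.31. In the cells of low insulin content 28 of 55 measured genes were higher, 6 were past 4-fold higher and the median was 0.026. No share or median over all genes was computed for that comparison, so these values have no background. Its control side was the 204 cells described above, with macrophage markers at 2139 CPM. The study took that list from earlier published work. The 11 genes past 4-fold higher in the whole insulin class included Pcp4l1. Among the others were the gut hormones Gast (6.24) and Cck (4.48), Tagln3 (4.09), the prostaglandin receptor Ptger3 (3.13), the metallothionein Mt3 (2.80), the endocrine progenitor factor Neurog3 (2.68), the granin Chgb (2.54), Sorcs2 (2.38) and Odad4 (2.32). Of 15 genes of β-cell identity 0 were past 4-fold higher and 2 past 4-fold lower, Mafa (-2.44) and Slc2a2 (-2.51), with a median of -0.57. Ins1 (-1.92) stood lower than Ins2 (-0.57).

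The TBL/RbKO insulin-class cells were divided into 274 with a UMI of Cre and 1064 without, at a median depth of 81403 and 64693 UMIs. Tmem252 stood at 74.6 and 73.0 CPM, Pcp4l1 at 129 and 133 CPM, Csn3 at 128 and 145 CPM, S100a6 at 424 and 481 CPM and Defb1 at 467 and 591 CPM. The order depended on depth for some members. Between 30000 and 60000 UMIs (65 and 373 cells) Pcp4l1 stood at 244 and 148 CPM and S100a6 at 613 and 514 CPM, while Tmem252 was at 60.7 and 70.3 CPM, Csn3 at 111 and 116 CPM and Defb1 at 448 and 682 CPM. Between 60000 and 120000 UMIs (136 and 457 cells) the values were 73.0 and 74.6 CPM for Tmem252, 122 and 132 CPM for Pcp4l1, 123 and 163 CPM for Csn3, 367 and 473 CPM for S100a6 and 452 and 553 CPM for Defb1. A cell without a Cre UMI is not shown to lack Cre.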
